A study of Mus musculus with 16 samples.

Results

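A set of 10 genes of antigen presentation by major histocompatibility complex (MHC) class I was followed through 16 B16F10 melanoma tumors: the class I heavy chains H2-K1 and H2-D1, the class I light chain B2m, the peptide transporter subunits Tap1 and Tap2, the peptide editor Tapbp, the immunoproteasome subunits Psmb8, Psmb9 and Psmb10, and Nlrc5, a transactivator of class I genes. The genes were found by their symbols, and all 10 were present among the 18929 genes of the deposited expression table. The tumors grew from the mouse melanoma line B16F10 in female C57BL/6 mice that were 7 to 8 weeks old, and each of the 4 groups held 4 separate tumors, so that p-values measure the spread between these tumors. Treatment began at a tumor volume of about 50 mm3 and lasted 9 to 11 days. The vehicle group received corn oil and an isotype IgG, the anti-PD1 group an antibody that blocks the T cell checkpoint receptor PD1, the α-KG group α-ketoglutarate at 100 mg/kg, and the α-KG + anti-PD1 group both agents. The experiment asked whether α-KG, an intermediate of the tricarboxylic acid cycle, strengthens anti-PD1 treatment. B16F10 is 1 cell line, and whole tumors were sequenced, so each value is a sum over melanoma cells, blood and infiltrating host cells.

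MHC class I molecules show short peptides from a cell's own proteins to CD8+ T cells. The peptides are cut by the proteasome, carried into the endoplasmic reticulum by the TAP1/TAP2 transporter and loaded, with the help of tapasin (Tapbp), onto a heavy chain bound to β2-microglobulin (B2m). Interferon-γ is known to induce most of this machinery. It acts in part through the transcription factor IRF1, and it makes cells exchange the constitutive catalytic subunits Psmb5, Psmb6 and Psmb7 for Psmb8, Psmb9 and Psmb10, which form the immunoproteasome. Nlrc5 is itself induced by interferon-γ and acts with DNA-binding factors at a set of motifs, the W/S, X and Y boxes, in class I promoters. B16F10 cells are known for low surface MHC class I that interferon-γ raises.

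Of the genes, 7 lie on chromosome 17 (build mm10), between the first base of Tapbp and the last base of H2-D1 (chr17:33915899-35267499), in the mouse MHC region. Within it, Tap1, Tap2, Psmb8 and Psmb9 share 34335 bases (chr17:34181987-34216321). B2m lies on another chromosome (chr2:122147686-122153083), as do Psmb10 (chr8:105935735-105938444) and Nlrc5 (chr8:94434356-94527272). Promoter sequences from RefSeq (build GRCm38.p6, the same assembly as mm10) covered 8 of the 10 genes. Tap2 and Nlrc5 had no entry.

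The promoters of both heavy chains and of B2m are shown because these 3 genes make up the class I molecule itself. Sequences run 5′ to 3′ on the gene's strand, and capitals mark matches, on either strand, to an NF-κB site (GGGGATTCC), the core of an interferon response element (GAAANNGAA or GAANNGAAA), the X2 box (TGACGC), the Y box (ATTGG) and a gamma-activated site (TTCNNNGAA). The first stretch is the 250 bases before the H2-K1 start (chr17:34000348-34000597, minus strand) and the second the 249 bases before the B2m first exon (chr2:122147437-122147685, plus strand).
H2-K1: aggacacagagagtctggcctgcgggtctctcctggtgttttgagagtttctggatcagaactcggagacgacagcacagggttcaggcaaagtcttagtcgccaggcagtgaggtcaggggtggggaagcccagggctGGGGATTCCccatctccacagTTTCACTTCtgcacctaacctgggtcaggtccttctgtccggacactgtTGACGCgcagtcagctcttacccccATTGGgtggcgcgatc
B2m: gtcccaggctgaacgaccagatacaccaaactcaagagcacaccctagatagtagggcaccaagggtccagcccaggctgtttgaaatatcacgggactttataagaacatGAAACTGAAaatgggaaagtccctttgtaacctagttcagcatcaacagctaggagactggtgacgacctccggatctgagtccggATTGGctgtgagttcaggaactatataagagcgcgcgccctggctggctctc

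H2-K1 has more than 1 RefSeq start, and the window shown belongs to the one at the 5′ end of its annotated span. H2-D1 held the NF-κB, interferon, X2 and Y box letters in the same order. From the NF-κB site to the Y box, 89 of 100 bases were identical between both genes. The stretch from the NF-κB site to the interferon element (H2-K1 chr17:34000429-34000458, H2-D1 chr17:35262923-35262952) and that from the X2 box to the Y box (H2-K1 chr17:34000359-34000388, H2-D1 chr17:35262993-35263022) read as follows.
H2-K1, NF-κB site to interferon element: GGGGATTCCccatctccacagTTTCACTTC
H2-D1, NF-κB site to interferon element: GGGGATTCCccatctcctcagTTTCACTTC
H2-K1, X2 box to Y box: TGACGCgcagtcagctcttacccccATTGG
H2-D1, X2 box to Y box: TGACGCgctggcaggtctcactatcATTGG

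Among all 32851 RefSeq windows of 250 bases, the NF-κB letters were in 0.213%, the X2 letters in 6.12%, the interferon core in 7.13% (first spelling) and 6.31% (second spelling), the gamma-activated site in 7.02% and the Y box in 33.8%. The Y box letters were in the windows of 6 of the 8 genes (H2-K1, H2-D1, B2m, Tap1, Psmb9 and Tapbp), and the gamma-activated site in that of Psmb8 alone. By their RefSeq starts, Tap1 and Psmb9 are transcribed away from each other with 225 bases between them, and the Y box letters found in both windows are the same bases. These matches are descriptions of sequence and do not show that a factor was bound.

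Expression was deposited as FPKM (fragments counted per kilobase of transcript and scaled to the mapped fragments of the library). Groups were compared with limma on log2(FPKM + 1) for 12850 genes, those with 0.5 FPKM or above in no fewer than 4 of the tumors, and p was adjusted over all of them by the Benjamini-Hochberg method. A gene was called at an adjusted p under 0.05. Pigment cell markers such as Mlana, Dct and Pmel were high in every tumor, with a summed level of 7845 to 10572 FPKM over 7 genes, which fits the melanoma label. Hemoglobin and other red cell genes summed to 10891 to 11752 FPKM in α-KG + anti-PD1 tumors and to 23319 to 145323 FPKM in the other 12, and the sum over all genes was also lowest in α-KG + anti-PD1 tumors (514180 to 527812 against 549740 to 654772). The split of genes into higher and lower therefore depended on scaling: α-KG + anti-PD1 against vehicle gave 4479 higher and 1348 lower, but 2197 higher and 4803 lower after centring each tumor on its median, and 6294 higher and 250 lower after scaling to the same sum. These settings moved the median log2 difference of all genes from 0.15 to -0.16 and 0.34. One vehicle tumor, number 1, stood apart from vehicle tumors 3 and 4 throughout, and values without it are given where they change a result.

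Mean levels of the antigen presentation genes were highest in α-KG + anti-PD1 tumors. All 10 were higher there than in vehicle tumors, by 3.13-fold (B2m) to 11.6-fold (Nlrc5) in mean FPKM, with a median of 6.55-fold. Vehicle tumor 1 raises the vehicle means, and without it the folds ran from 4.55 (B2m) to 26.5 (Nlrc5) with a median of 14.04. Vehicle tumors 3 and 4 lower them. Without tumor 3 the folds ran from 2.58 (B2m) to 9.23 (Nlrc5) with a median of 5.27. Without tumor 4 they ran from 2.59 to 9.11 with a median of 5.29. On the log2(FPKM + 1) scale the differences ran from 1.89 (Psmb10) to 3.69 (Psmb9) with a median of 2.92, where the median over all genes tested was 0.15. Each passed the threshold, with adjusted p from 0.00071 to 0.00522, in a comparison that called 34.9% of all genes higher. In 9 of the 10, every α-KG + anti-PD1 tumor lay above every vehicle tumor, which held for 28.2% of all genes. The exception was H2-D1. All 10 stayed called when any 1 of the 16 tumors was left out.

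**Figure D1:**
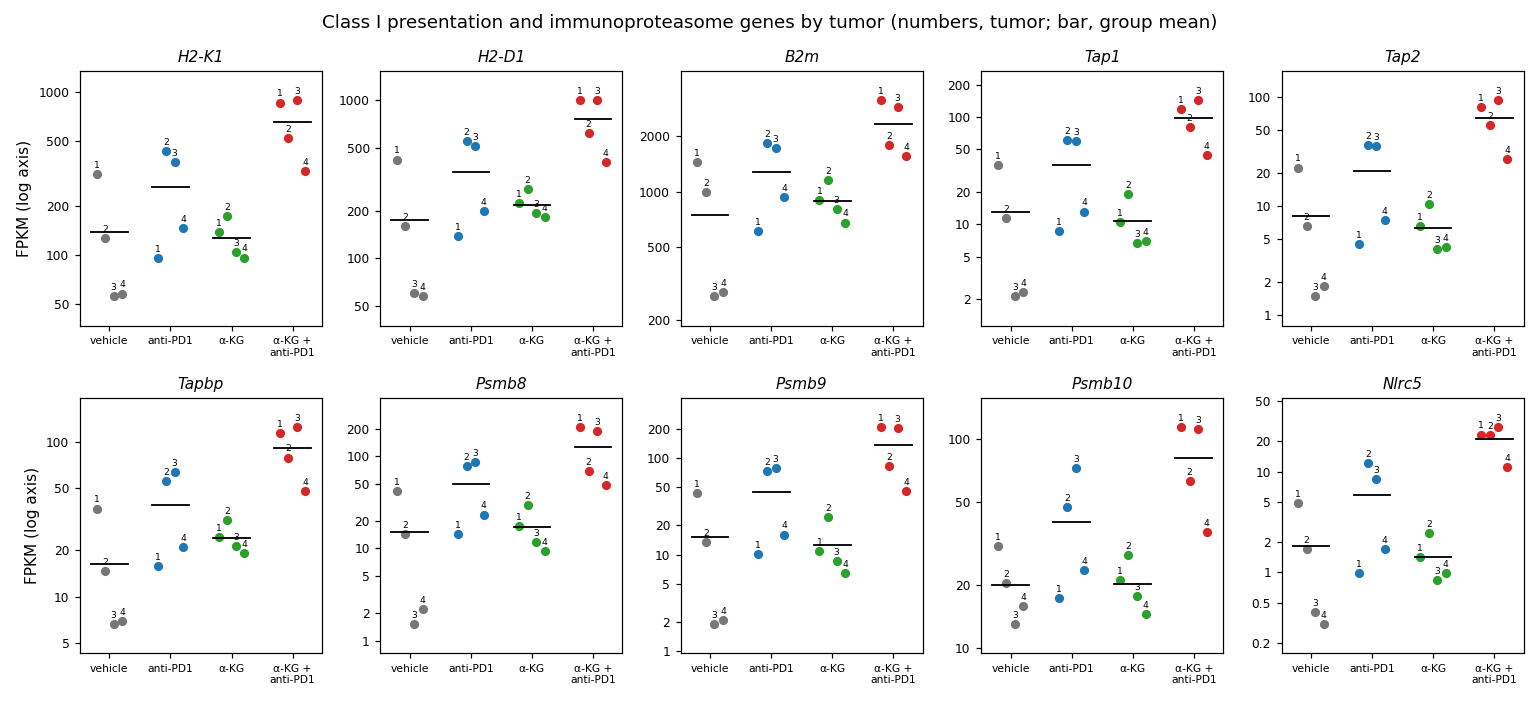
FPKM on a log axis for each gene, with 1 point per tumor, the tumor number above it and a bar at the group mean. The α-KG + anti-PD1 group had the highest mean for each gene, but anti-PD1 tumor 2 lay above α-KG + anti-PD1 tumor 4 for all 10. Vehicle tumor 1 lay above the other vehicle tumors for all 10 genes, and anti-PD1 tumors 2 and 3 lay above anti-PD1 tumors 1 and 4.

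Both classical heavy chains rose. H2-K1, which encodes the Kb molecule of this mouse strain, was at 313, 126, 55.6 and 57.9 FPKM in vehicle tumors 1 to 4 and at 864, 523, 893 and 327 FPKM in α-KG + anti-PD1 tumors 1 to 4. The groups did not overlap, but the highest vehicle tumor and the lowest treated tumor were close. The log2 difference was 2.49 ± 0.55 (SE, adjusted p = 0.00241). H2-D1, which encodes Db, stood at 421, 161, 60.4 and 57.7 FPKM in vehicle and at 995, 616, 991 and 407 FPKM in α-KG + anti-PD1 tumors. Here vehicle tumor 1 lay above α-KG + anti-PD1 tumor 4, so the groups overlapped by that pair of tumors. The log2 difference was 2.50 ± 0.56 (adjusted p = 0.00274). Of the 50-base stretches in the transcripts of these genes, 9.63% (H2-K1) and 12.8% (H2-D1) also occur in transcripts of other genes, mostly other class I genes, so a part of their reads could be exchanged with those relatives.

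B2m, the light chain shared by all class I molecules, was the most abundant of the 10 in every group. It was at 1455, 990, 270 and 286 FPKM in vehicle, at 613, 1842, 1733 and 934 FPKM in the anti-PD1 group, at 903, 1155, 806 and 679 FPKM in the α-KG group, and at 3142, 1791, 2892 and 1561 FPKM in α-KG + anti-PD1 tumors. The α-KG + anti-PD1 tumors were all above the vehicle and α-KG tumors, and 2 of them were above every anti-PD1 tumor. Its fold over vehicle in mean FPKM was the smallest of the 10, and its log2 difference was 1.96 ± 0.49 (adjusted p = 0.00522).

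The peptide transporter and tapasin rose too. Tap1, which with Tap2 moves peptides into the endoplasmic reticulum, was at 35.9, 11.4, 2.13 and 2.34 FPKM in vehicle, at 8.59, 61.5, 59.5 and 13.2 FPKM in the anti-PD1 group, at 10.4, 19.1, 6.64 and 7.04 FPKM in the α-KG group, and at 119, 80.9, 143 and 43.9 FPKM in α-KG + anti-PD1 tumors. Vehicle tumor 1 was 16.8 times as high as vehicle tumor 3, and the α-KG + anti-PD1 tumors were above all vehicle and all α-KG tumors. Against vehicle the log2 difference was 3.43 ± 0.75 (adjusted p = 0.00241). Tap2 followed, with 1.48 to 22.4 FPKM in vehicle and 26.7 to 93.0 FPKM in α-KG + anti-PD1 tumors and a log2 difference of 3.31 ± 0.71 (adjusted p = 0.00214). Tapbp, or tapasin, which bridges the transporter and the empty class I molecule, ranged from 6.70 to 37.1 FPKM in vehicle and from 48.4 to 124 FPKM in α-KG + anti-PD1 tumors. The log2 difference of Tapbp was 2.66 ± 0.50 (adjusted p = 0.00102).

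All 3 immunoproteasome subunits rose. Psmb8 (LMP7) was at 42.0, 14.4, 1.53 and 2.22 FPKM in vehicle, at 14.3, 78.0, 87.1 and 23.4 FPKM in the anti-PD1 group, at 17.6, 29.6, 11.7 and 9.32 FPKM in the α-KG group, and at 206, 68.6, 188 and 48.5 FPKM in α-KG + anti-PD1 tumors. Vehicle tumors 3 and 4 held almost none, and the 2 highest tumors of all were α-KG + anti-PD1 tumors 1 and 3. The log2 difference from vehicle was 3.65 ± 0.81 (adjusted p = 0.00263). Psmb9 (LMP2) showed the largest difference of the 10, 3.69 ± 0.84 (adjusted p = 0.00303), from 1.93 to 43.6 FPKM in vehicle to 45.4 to 206 FPKM in α-KG + anti-PD1 tumors. Psmb10 (MECL-1) started higher, at 13.1 to 30.8 FPKM in vehicle, reached 35.8 to 114 FPKM and differed by 1.89 ± 0.42 (adjusted p = 0.00272). Whether the 3 differed from each other in this was not tested. In the GENCODE annotation, whose longest Psmb9 transcript starts further upstream than the RefSeq start, Psmb9 and Tap1 overlap at their 5′ ends on opposite strands. The library kit marked strand, but whether counting used it is not given in the sources used here, so a small part of their reads could be shared.

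Nlrc5 had the lowest level of the 10 and the largest fold. It was at 4.90, 1.69, 0.40 and 0.31 FPKM in vehicle, at 0.99, 12.3, 8.36 and 1.69 FPKM in the anti-PD1 group, at 1.42, 2.44, 0.84 and 0.98 FPKM in the α-KG group, and at 23.4, 23.1, 27.5 and 11.0 FPKM in α-KG + anti-PD1 tumors. In α-KG + anti-PD1 tumors 1, 2 and 3 it was above every tumor of the other groups, and tumor 4 was exceeded only by anti-PD1 tumor 2. Its log2 difference from vehicle was 3.19 ± 0.57 (adjusted p = 0.00071), the smallest adjusted p of the 10. Values under 1 FPKM are imprecise, and adding 1 before the logarithm shrinks differences that start there.

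Relative to the constitutive subunits that they replace, the immunosubunits were again highest on average in α-KG + anti-PD1 tumors. The constitutive Psmb5 was at 113 to 155 FPKM, Psmb6 at 137 to 176 FPKM and Psmb7 at 144 to 218 FPKM over all 16 tumors. The ratio of Psmb8 to Psmb5 was 0.105 ± 0.124 (SD, n = 4) in vehicle, 0.365 ± 0.264 in the anti-PD1 group, 0.122 ± 0.0527 in the α-KG group and 0.975 ± 0.592 in α-KG + anti-PD1 tumors. In α-KG + anti-PD1 tumors 1 and 3 it was 1.65 and 1.29, that is, more Psmb8 than Psmb5 per transcript length. The ratio of Psmb9 to Psmb6 went from 0.101 ± 0.134 in vehicle to 0.848 ± 0.466, and that of Psmb10 to Psmb7 from 0.0996 ± 0.0430 to 0.519 ± 0.235. In the anti-PD1 group these ratios were 0.284 ± 0.241 and 0.221 ± 0.136. For all 3 ratios the α-KG + anti-PD1 tumors lay above every vehicle and every α-KG tumor. The exact permutation test, 2-sided over tumors on ratios of FPKM + 1, gave p = 0.0286 for each of these, the smallest value that 4 against 4 tumors allow, and 0.0857 after adjustment over the 18 ratio comparisons. No ratio comparison therefore passed after adjustment. Between α-KG + anti-PD1 and anti-PD1 tumors all 3 ratios overlapped, with unadjusted p from 0.114 to 0.171 in the same permutation test. Of the 50-base stretches of Psmb5 transcripts, 54.1% also occur in transcripts of other annotated genes, chiefly a predicted gene, so the level of Psmb5 is less certain than those of Psmb6 and Psmb7.

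**Figure D2:**
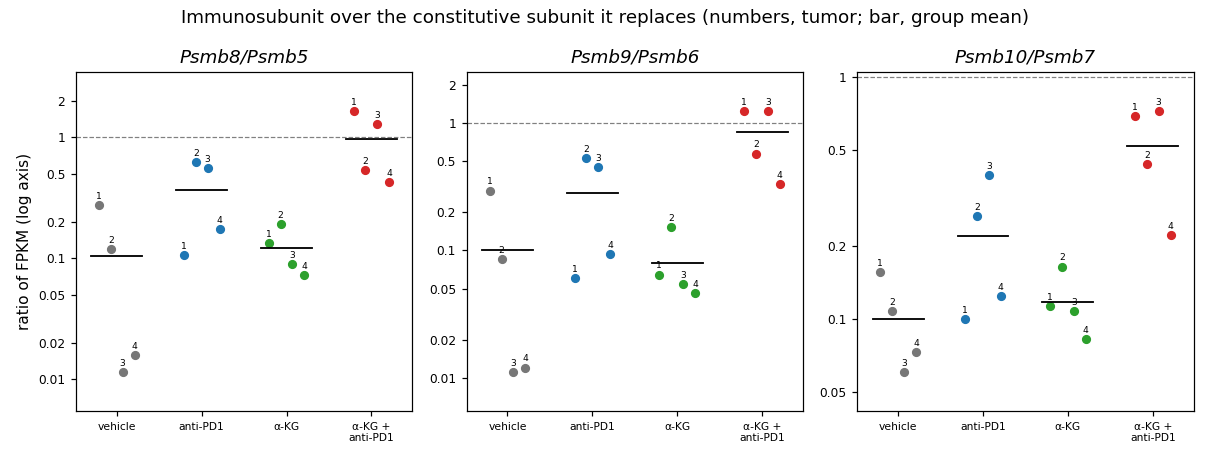
Ratio of FPKM of each immunosubunit to the constitutive subunit it replaces, on a log axis, with 1 point per tumor, the tumor number above it, a bar at the group mean and a dashed line at 1. Only α-KG + anti-PD1 tumors 1 and 3 passed 1, for Psmb8/Psmb5 and Psmb9/Psmb6.

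Against α-KG alone, adding anti-PD1 raised all 10 genes, by 2.65-fold (B2m) to 14.96-fold (Nlrc5) in mean FPKM. The log2 differences ran from 1.37 to 3.22 with a median of 2.49 (0.16 over all genes), and adjusted p from 0.00111 to 0.0383. This comparison called 31.8% of all genes higher. No α-KG tumor reached an α-KG + anti-PD1 tumor for any of the 10, a separation found for 29.7% of all genes. Nlrc5 differed by 3.17 ± 0.57, Psmb9 by 3.22 ± 0.84, H2-K1 by 2.27 ± 0.55 and B2m by 1.37 ± 0.49. The highest adjusted p were those of B2m (0.0383) and H2-D1 (0.0258), and both calls were lost without α-KG tumor 3 or 4 or without α-KG + anti-PD1 tumor 1 or 3. Without α-KG + anti-PD1 tumor 3 that of Psmb8 was lost as well, which left 7 of 10, and without α-KG tumor 1 that of B2m alone.

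Against anti-PD1 alone, 1 of the 10 genes passed. Nlrc5 was higher by 2.06 ± 0.57 on the log2 scale (adjusted p = 0.0293), and 3.65-fold in mean FPKM. The other 9 were 1.83 (B2m) to 3.06 (Tap2) times as high in mean FPKM, with adjusted p from 0.0751 (Tapbp) to 0.227 (Psmb8). Over the 10 the median log2 difference was 1.44, against 0.12 for all genes, and 8 had an unadjusted p under 0.05. In this comparison 14.2% of all genes were called higher and 13.6% had every α-KG + anti-PD1 tumor above every anti-PD1 tumor. None of the 10 was separated in that way, since anti-PD1 tumor 2 lay above α-KG + anti-PD1 tumor 4 for all 10. The count turned on single tumors: it was 0 without anti-PD1 tumor 1 or 4 or without α-KG + anti-PD1 tumor 1, 2 or 3, and 3 to 5 without vehicle tumor 1, anti-PD1 tumor 2 or 3 or α-KG + anti-PD1 tumor 4.

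Neither agent alone gave a call among the 10 genes. Anti-PD1 tumors had 1.71-fold (B2m) to 3.37-fold (Psmb8) the mean FPKM of vehicle tumors, but limma called 0 of 10, with adjusted p from 0.195 to 0.358, and 5 had an unadjusted p under 0.05. The widest difference was that of Psmb8, 2.23 ± 0.81, with a 95% interval of 0.50 to 3.96. This comparison called 0.467% of all genes higher, and 5% of all genes, but none of the 10, had every anti-PD1 tumor above every vehicle tumor. Anti-PD1 tumors 2 and 3 were above vehicle tumor 1 for all 10 genes, and anti-PD1 tumors 1 and 4 were below it for all 10. Without vehicle tumor 1, 4 genes were called (H2-D1, Tap1, Tapbp and Psmb8) and the folds ran from 2.44 (Psmb10) to 8.39 (Psmb8). Without vehicle tumor 3 or 4, 0 were called. The folds then ran from 1.41 and 1.42 (B2m) to 2.60 and 2.63 (Psmb8).

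α-KG tumors had 0.776-fold (Tap2) to 1.47-fold (Tapbp) the mean FPKM of vehicle tumors, with 5 of the 10 folds under 1. Without vehicle tumor 1 they ran from 1.23 (Psmb10) to 2.83 (Psmb8), and 0 were under 1. Without vehicle tumor 3, and likewise without tumor 4, 8 of the folds were under 1. Limma called 0 of 10, and 0 had an unadjusted p under 0.05, where 8.4% of all genes were called higher. The median log2 difference was 0.43, against -0.04 for all genes. It was 1.07 without vehicle tumor 1, 0.65 without vehicle tumor 2, -0.06 without vehicle tumor 3, -0.03 without vehicle tumor 4 and 0.11 without α-KG tumor 2, so its direction turned on single tumors. For H2-K1 the difference was 0.22 with a 95% interval of -0.94 to 1.38, and for Nlrc5 it was 0.01 with an interval of -1.19 to 1.22. All 4 α-KG tumors lay below vehicle tumor 1 and above vehicle tumors 3 and 4 for H2-K1, H2-D1, B2m, Tap1, Tap2, Tapbp, Psmb8, Psmb9 and Nlrc5. This order leaves vehicle tumor 2 aside, and vehicle tumors 3 and 4 were below vehicle tumors 1 and 2 for all 10 genes. The share of all genes that show this order was not computed. Without vehicle tumor 1, Tapbp alone was called, at 1.32 (adjusted p = 0.049). Between the single agents, α-KG minus anti-PD1 was negative for all 10 genes, with a median of -0.96, and 0 of 10 were called in either direction (0.358% of all genes were called lower and 2.8% higher in α-KG tumors).

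**Figure D3:**
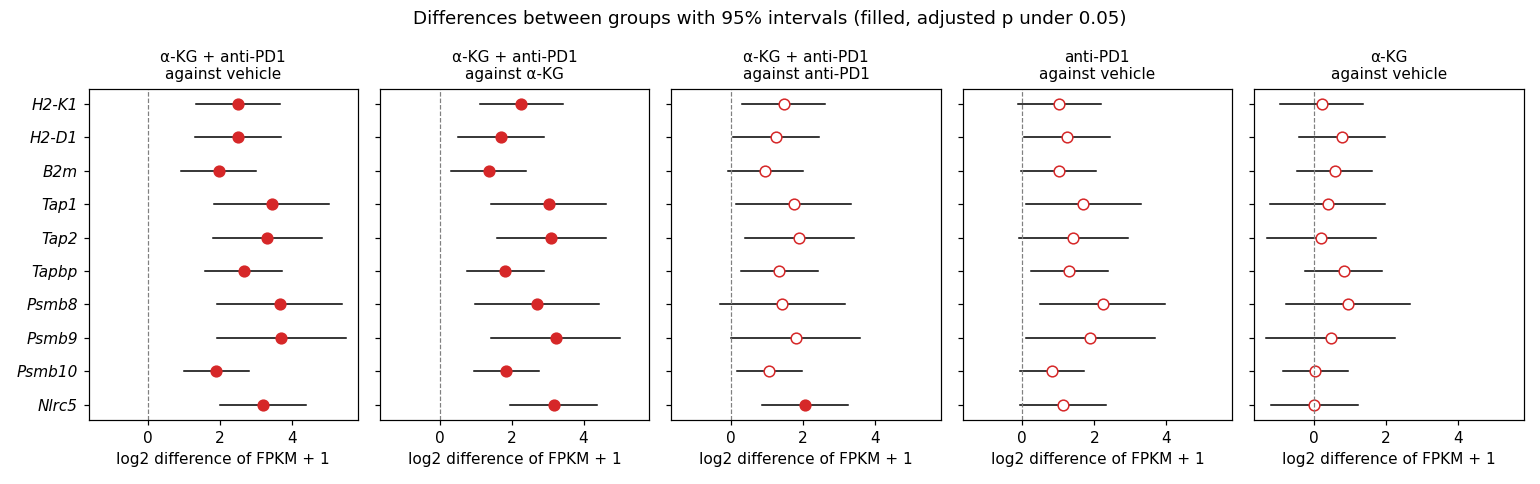
Log2 difference of FPKM + 1 between groups for each gene (points) with its 95% interval (lines), 1 panel per comparison. Filled points passed an adjusted p of 0.05: all 10 in the first 2 panels, Nlrc5 alone in the third, and 0 in the last 2.

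Whether the effect of anti-PD1 was larger with α-KG than without it was tested as an interaction. It was positive for all 10 genes, from 0.36 (B2m) to 2.05 (Nlrc5), with a median of 1.13 against 0.15 for all genes. The median was 0.59 without vehicle tumor 1, where H2-D1, B2m and Psmb8 turned negative, and 0.76 with array weights or without anti-PD1 tumor 1. None passed in limma, and Nlrc5 alone had an unadjusted p under 0.05. The interaction of Nlrc5 was 2.05 ± 0.80 with a limma adjusted p of 0.104, and the others had an adjusted p of 0.267 or more. The same test called 7.99% of all genes in the positive direction. For the genes other than Nlrc5, a call against α-KG alone and none against anti-PD1 alone does not by itself show a difference between the agents. That difference is the comparison between the single agents, where limma called 0 of the 10 genes (adjusted p from 0.356 to 0.691).

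Within a group the 10 genes rose and fell together from tumor to tumor. Vehicle tumor 1 was the highest of its group for all 10 genes, α-KG tumor 2 was the highest of its group for all 10, anti-PD1 tumor 1 and α-KG + anti-PD1 tumor 4 were the lowest of theirs for all 10. Anti-PD1 tumors 2 and 3 were above tumors 1 and 4, and α-KG + anti-PD1 tumors 1 and 3 above tumors 2 and 4, for every one of the 10. As a description over the 16 tumors, deviations from the group means correlated with Pearson's r from 0.815 (B2m and Psmb10) to 0.995 (Tap1 and Tap2) over the 45 pairs of genes, with a median of 0.970. Each point of such a pair comes from the same library, so library effects are included. In vehicle tumors the highest tumor was 2.36 times (Psmb10) to 27.5 times (Psmb8) the lowest, the widest range of the 4 groups for every gene but Psmb10. In α-KG tumors it was 1.49 times (H2-D1) to 3.77 times (Psmb9), the narrowest for every gene but Nlrc5.

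Among the 8582 other tested genes with a mean of at least 5 FPKM, the 6 whose deviations followed the mean of the 10 most closely were Irf1 (r = 0.989), Ifi47 (0.979), Igtp (0.978), Erap1 (0.976), Psme2 (0.974) and C4b (0.973), each over 16 tumors. Irf1 encodes a transcription factor of the interferon response, Ifi47 and Igtp encode interferon-inducible GTPases, Erap1 trims peptides in the endoplasmic reticulum, Psme2 is a subunit of the proteasome activator PA28, and C4b is a complement component. Irf1 was at 19.5, 11.3, 3.18 and 3.54 FPKM in vehicle, at 7.74, 38.1, 38.5 and 10.8 FPKM in the anti-PD1 group, at 11.2, 16.4, 9.85 and 9.31 FPKM in the α-KG group, and at 97.7, 53.1, 109 and 33.9 FPKM in α-KG + anti-PD1 tumors, the same order of tumors within each group as for Tap1 apart from single exchanges.

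Other genes of the pathway moved in different directions. Of the other class I heavy chains of the Q, T and M regions, 16 were in the table, 12 passed the filter and 10 were higher in α-KG + anti-PD1 than in vehicle tumors, led by H2-Q7 (log2 difference 3.20), H2-Q6 (2.84), H2-Q4 (2.18) and H2-T23 (2.14), the mouse homolog of HLA-E. None was lower, and the median over the 12 was 1.60, in a comparison that called 34.9% of all genes higher. A gene can pass the filter through the α-KG + anti-PD1 group alone. Without the filter 11 of 16 were higher, with a median of 0.91. Many of these genes are near-identical in sequence, and their separate levels are uncertain. Of 4 class I-like genes, Cd1d1 (0.86) and Hfe (0.43) rose, whereas Mr1 and the neonatal Fc receptor Fcgrt were not called. Of 9 loading and trimming factors, the tapasin relative Tapbpl (1.85 ± 0.31, adjusted p = 0.00059) and Erap1 (1.61 ± 0.36, adjusted p = 0.0028) rose, and the general chaperones Calr, Canx, Pdia3 and Hspa5 were between -0.18 and 0.04 and not called. These small differences depended on scaling, since centring on the tumor median gave 2 higher and 6 lower of the 9 and the same sum 3 higher and 0 lower.

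No gene of the constitutive core or the 19S cap was called higher in α-KG + anti-PD1 against vehicle tumors. Of the 14 constitutive subunits of the 20S core, 0 were higher and 5 were lower, by small amounts, in α-KG + anti-PD1 against vehicle tumors, led by Psma6 (-0.42) and Psmb7 (-0.39), which fell from 205 ± 13.9 to 157 ± 9.17 FPKM (SD, n = 4). Psmb5 and Psmb6, at -0.09 and -0.10, were not called. Of 19 genes of the 19S cap, which recognizes ubiquitin-tagged proteins, 0 were higher and 13 lower, with a median of -0.25, where 10.5% of all genes were called lower. The cap count was 5 without vehicle tumor 3 or 4 or α-KG + anti-PD1 tumor 2. In α-KG alone against vehicle, which called 7.53% of all genes lower, 11 of the 19 cap genes (median -0.27) and 3 of the 14 core genes were lower, and leaving out 1 tumor gave 4 to 15 and 0 to 6. The lower calls in α-KG + anti-PD1 tumors depended on scaling: with every tumor scaled to the same sum, 0 of 14 core and 0 of 19 cap genes were lower, and with centring on the tumor median 13 and all 19 were. Among 10 activators, inhibitors and assembly factors, 2 were called higher and 2 lower, where 34.9% of all genes were called higher and 10.5% lower. The 2 higher were the interferon-inducible PA28 subunits, Psme2 by 1.49 and Psme1 by 1.19. Psme3 and the assembly chaperone Psmg1 fell by 0.43 and 0.35. In the cytosolic peptidase list, 6 genes were tested, of which Npepps rose by 0.41 and Thop1 fell by 0.38.

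Of 20 genes of interferon signaling and of the factors that bind class I promoters, 16 were higher in α-KG + anti-PD1 than in vehicle tumors, against 34.9% of all genes. With centring on the tumor median 10 were higher and 2 lower, and with quantile normalization 11 and 2, so the smaller differences below depended on scaling. Irf8 (3.30), Irf1 (3.02) and Stat2 (2.18) led. Irf8 is also a marker of myeloid cells. The receptor chains and the factors at the X and Y boxes moved less: Ifngr1 by 1.12, Ifngr2 by 0.36, Rfx5 by 0.74, Rfxank by 0.45 and Nfya by 0.48, while Rfxap, Nfyb, Nfyc and Creb1 were not called. Genes named here as not called, the last 5 called ones and Cd8a fall outside the rule for named genes and were picked with their values known. In α-KG against vehicle tumors, which called 8.4% of all genes higher, 4 of the 20 were higher. In anti-PD1 against vehicle tumors, which called 0.467% of all genes higher, 0 were.

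**Figure D4:**
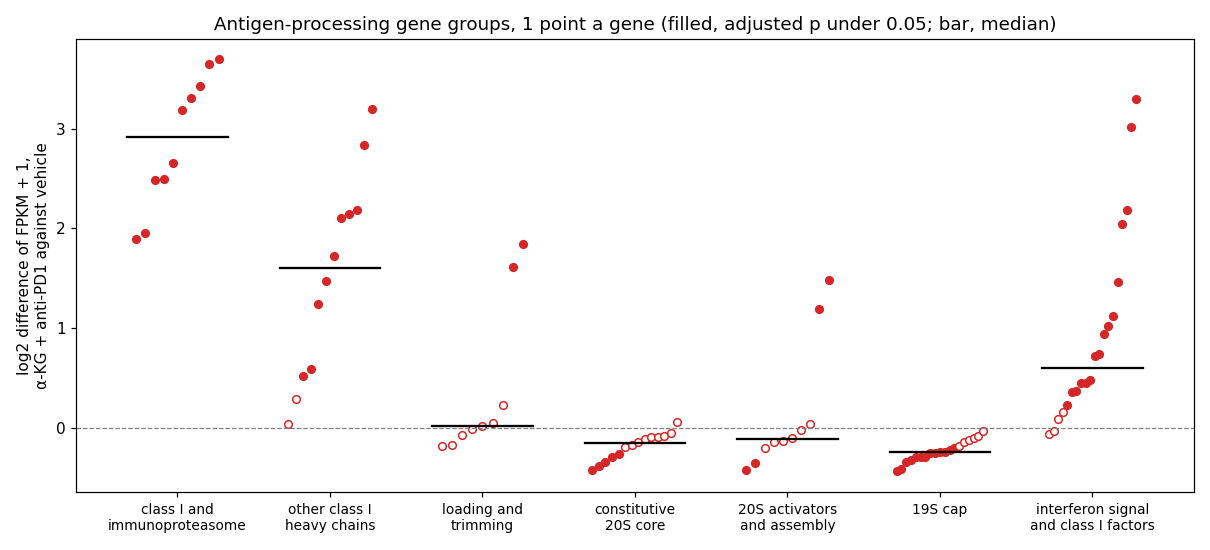
Log2 difference of FPKM + 1 between α-KG + anti-PD1 and vehicle tumors, with 1 point per tested gene, filled at an adjusted p under 0.05, and a bar at the median of each list. The 10 genes, most other class I heavy chains and the leading interferon factors lay above 1, and the constitutive core and the 19S cap lay at or below 0 apart from 1 core gene at 0.06.

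Markers of host cells moved with these genes in some comparisons and not in others. In bulk tumors, more cells of a type and more RNA per cell cannot be told apart. In α-KG + anti-PD1 against vehicle tumors, 34.9% of all genes were called higher, with a median log2 difference of 0.15. There 8 of 8 pan-leukocyte markers were higher (median log2 difference 2.89), as were 8 of 8 T cell markers (2.96). So were 8 of 8 macrophage markers (2.41) and 9 of 9 tested MHC class II and dendritic cell markers (2.41). Their summed levels were 46.5 to 190 FPKM in vehicle and 298 to 1102 FPKM in α-KG + anti-PD1 tumors for the leukocyte list, 1.23 to 11.0 and 25.8 to 234 FPKM for the T cell list, 98.6 to 492 and 684 to 1643 FPKM for the macrophage list, and 39.9 to 332 and 440 to 3238 FPKM for the class II list. Cd3d and Cd5 were listed at 0 in at least 1 vehicle tumor. Vehicle tumor 1, highest for the 10 genes, was also highest of its group for all 4 sums.

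The calls for α-KG alone differed between the lists. In α-KG against vehicle tumors 8 of 8 pan-leukocyte markers were higher, with a median log2 difference of 2.89, while 0 of the 10 presentation genes and 0 of 8 T cell markers were called, where 8.4% of all genes were. Macrophage markers lay between, with 5 of 8 higher (median 1.48), as did class II and dendritic cell markers, with 1 of 9 (median 1.55). The leukocyte marker Ptprc, which encodes CD45, was at 4.31, 2.21, 0.65 and 0.88 FPKM in vehicle, at 16.5, 17.6, 20.1 and 23.5 FPKM in the α-KG group, and at 37.6, 14.2, 35.5 and 9.34 FPKM in α-KG + anti-PD1 tumors. Cd8a, a chain of the CD8 co-receptor, was at 1.13, 0.68, 0.07 and 0.16 FPKM in vehicle, at 0.59, 3.63, 0.58 and 0.56 FPKM in the α-KG group, and at 30.5, 10.0, 25.2 and 3.11 FPKM in α-KG + anti-PD1 tumors. In α-KG + anti-PD1 against α-KG tumors, 31.8% of all genes were called higher. There 10 of 10 presentation genes and 8 of 8 T cell markers were higher and 0 of 8 leukocyte markers were called, with a median of 0.05. Macrophage markers gave 3 of 8 and class II markers 6 of 9, and with 1 tumor left out 0 to 4 and 2 to 7, while for α-KG against vehicle they gave 5 to 8 and 0 to 5. These counts were the same whichever single tumor was left out for the leukocyte list in α-KG against vehicle (8 of 8) and for the T cell list there (0), and were 7 or 8 for the T cell list in the comparison of α-KG + anti-PD1 with α-KG. In α-KG + anti-PD1 against anti-PD1 tumors, 14.2% of all genes were called higher. Presentation genes gave 1 of 10 there and T cell markers 7 of 8 (0 to 8 with 1 tumor left out). Leukocyte markers gave 2 of 8, macrophage markers 0 of 8 and class II markers 2 of 9. In anti-PD1 against vehicle tumors (0.467% of all genes higher) leukocyte and macrophage markers gave 1 of 8 each (0 to 8). T cell and class II markers and the 10 genes gave 0. Whether the lists differ from the 10 genes in their response was not tested.

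Over the 16 tumors, deviations of the mean of the 10 genes from the group means correlated at r = 0.944 with those of the interferon and promoter factor list, 0.900 with the class II list, 0.872 with the macrophage list, 0.837 with the leukocyte list, 0.753 with the T cell list and 0.0826 with the pigment cell list, and at -0.635 with the red cell list. These are descriptions over points that share a library. Of the 7 pigment cell markers, Tyr (-0.48) and Tyrp1 (-0.34) were lower in α-KG + anti-PD1 than in vehicle tumors and the other 5 were not called. Scaling turned this count, with 2 higher and 0 lower at the same sum, 1 higher and 1 lower with quantile normalization and 0 higher and 4 lower with centring. Of the red cell markers 6 of 6 were lower, with a median of -3.05, where 10.5% of all genes were called lower. Fibroblast markers gave 0 calls of 5 tested in limma (0 to 3 with 1 tumor left out), keratinocyte markers were too low to test, and the only endothelial marker tested, Pecam1, was higher by 0.90. Muscle genes were lower (5 of 5). Their sums were 49.7 to 66.7 FPKM in vehicle tumors 1 to 3 and 644 FPKM in vehicle tumor 4 alone. In α-KG + anti-PD1 tumors 1 to 4 they were 62.3, 39.15, 4.5 and 4.11 FPKM, so the groups overlapped. Vehicle tumor 4 also had the highest fibroblast sum, 37.55 FPKM. In anti-PD1 against vehicle 36 of 12850 genes were called lower, and in α-KG against vehicle 7.53% were. Among them were 4 of 5 muscle genes in anti-PD1 and 5 of 5 in α-KG tumors. For α-KG + anti-PD1 the count was 0 without its tumor 3 or with only the compared groups fitted and 2 without its tumor 4 or vehicle tumor 4, for anti-PD1 it was 0 to 5 with 1 tumor left out, and for α-KG it stayed at 5. The part of host cells in the levels of the 10 genes was not tested.

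**Figure D5:**
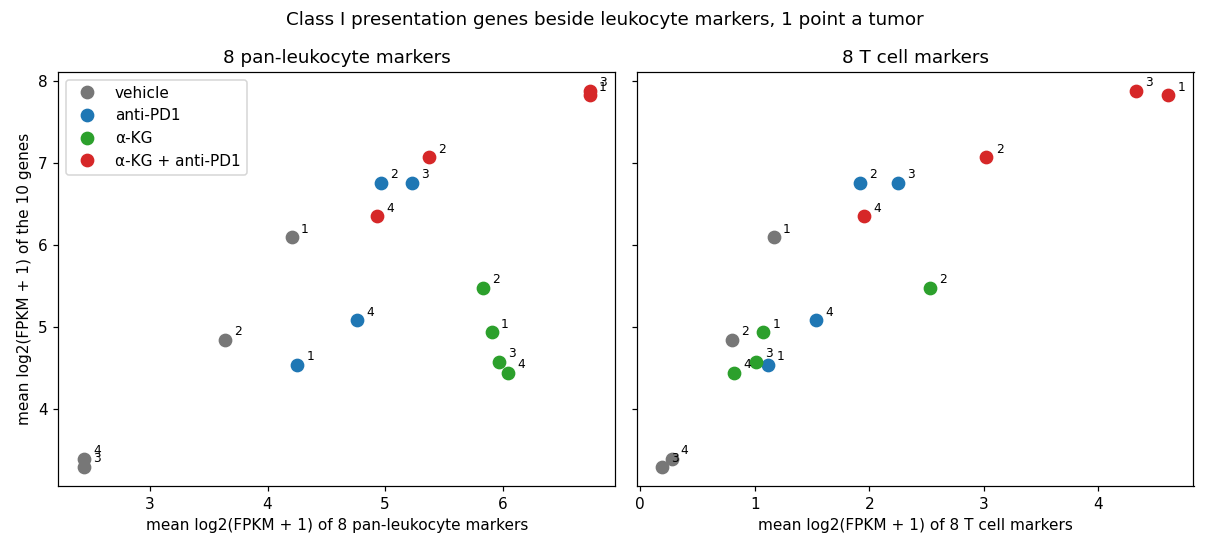
Mean log2(FPKM + 1) of the 10 genes against that of 8 pan-leukocyte markers (left) and 8 T cell markers (right), with 1 numbered point per tumor and colors for groups. The 4 α-KG tumors lay at 5.84 to 6.05 for leukocyte markers, 0.818 to 2.53 for T cell markers and 4.44 to 5.48 for the 10 genes. In the same order, α-KG + anti-PD1 tumors lay at 4.93 to 6.74, 1.96 to 4.61 and 6.35 to 7.88. Vehicle tumor 1 lay at 4.21, 1.17 and 6.10.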

How the data were processed

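Poly(A) RNA of 16 tumors was sequenced on a DNBSEQ instrument from libraries whose second cDNA strand carried dUTP. The submitters' processing notes name HISAT, Bowtie2 and build mm10, and versions, annotation and counting are not given in the sources used here. The authors deposited 1 table of FPKM values with 18929 genes. Depth is unknown, so no counting interval is given. Groups were taken from the treatment labels, and no tumor was left out. Log2(FPKM + 1) of 12850 genes (0.5 FPKM or above in no fewer than 4 tumors) was fitted with 1 mean per group by limma 3.58.1 (eBayes with trend, R 4.3.3), tested on simulated data, and p was adjusted by Benjamini-Hochberg. Ratios of subunits were compared with the exact permutation test over tumors. The 10 genes and all lists were chosen with earlier results of these data known. Named were the 10 genes, Psmb5, Psmb6, Psmb7, up to 4 genes per list that passed against vehicle with the largest difference, and the 6 genes most like the 10. Other genes named were picked with their values known. The second spelling of the interferon element was added after the heavy chain windows were read. Gene positions came from GENCODE M21 and promoter windows from RefSeq. Alternatives were pseudocount, filter, scaling, weights, pairing, the groups fitted and leaving out each tumor. Replicate numbers do not pair tumors: correlations between same-numbered tumors ran from -0.64 to 0.41.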

Additional observations from a re-analysis of the deposited data

How the results depend on the processing

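All 10 genes stayed called in α-KG + anti-PD1 against vehicle under every alternative tried, and 7 to 10 of them against α-KG when 1 tumor was left out. B2m lost its call against α-KG without a filter and with centring on the tumor median (9 of 10 each). Other counts moved. Against anti-PD1 the count of 1 became 0 with a pseudocount of 0.1 and with only the compared groups fitted, 5 with scaling to the same sum and 10 with array weights, and leaving out 1 tumor gave 0 to 5. In anti-PD1 against vehicle the count of 0 became 10 with array weights and 0 to 4 with 1 tumor left out. In α-KG against vehicle it became 6 and 0 to 1, and for the interaction 1 and 0 to 1. Array weights ran from 0.280 for vehicle tumor 1 to 3.74 for vehicle tumor 3, so that fit rests on vehicle tumors 3 and 4.

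Signs changed where no call was made. In α-KG against vehicle Nlrc5 (0.01) became -0.13 with quantile normalization, -0.0235 with centring, -0.00606 with the same sum and -0.0216 with the same sum without hemoglobin, where Psmb10 became -0.0118. With 1 tumor left out the ranges of this comparison were -0.087 to 0.74 for H2-K1, -0.078 to 1.11 for Tap1, -0.21 to 0.87 for Tap2, -0.052 to 1.26 for Psmb9, -0.13 to 0.27 for Psmb10, -0.26 to 0.46 for Nlrc5 and -0.026 to 1.36 for the ratio of Psmb9 to Psmb6. For the interaction, array weights gave -0.0197 for H2-D1, -0.21 for B2m and -0.29 for Psmb8, and leaving out 1 tumor gave -0.12 to 0.82 for H2-D1, -0.084 to 0.72 for B2m and -0.30 to 1.06 for Psmb8. The cause was not tested. A fit with a replicate block left the counts at 10 (against vehicle), 1 (against anti-PD1) and 10 (against α-KG), and at 0 for the rest. The ratio tests, with the numbers taken as pairs, kept their differences with the lowest adjusted exact p at 0.281. With 4 pairs this exact test cannot give even an unadjusted p under 0.05, so it could call no ratio. Of the 16 tumors, 4 correlated best with their own number. Depth is unknown, and values under 1 FPKM, such as Nlrc5 in vehicle tumors 3 and 4, are the least precise.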
